A study of Mus musculus with 9 samples.

Results

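The genes examined were 10 of the interleukin-1 (IL-1) family and the inflammasome in lung macrophages: Il1a, Il1b, Il1rn, Il1r2, Il18, Il18bp, Casp1, Casp4, Nlrp3 and Pycard. They were taken by gene symbol from the 24346 symbols measured, and all 10 were found. RNA sequencing had been performed on sorted lung macrophages of female wild-type C57BL/6 mice at postnatal week 10, in 3 groups of 3 samples. The Ctrl-AM samples were alveolar macrophages (AMs) from mice that received vehicle, which the study names as PBS. The Tumor-AM samples were AMs from mice whose left lung had been injected, in PBS and Matrigel, with Lewis lung carcinoma cells, a mouse lung cancer line that here carried the red fluorescent protein tdTomato. The Tumor-macrophage samples were Siglec-F- tumor-associated macrophages (TAMs) from tumor-bearing mice. All were sorted as CD45+ autofluorescent cells from enzymatically digested lungs that had not been perfused, with Siglec-F separating AMs from TAMs. Control and tumor-bearing mice were bred separately, so breeding and tumor cannot be told apart between Ctrl-AM and the other groups, and whether same-numbered Tumor-AM and Tumor-macrophage samples came from 1 mouse was not given in the sources used here. Whether the vehicle also held Matrigel was not given, so Matrigel may differ between Ctrl-AM and the other groups too. Each sample of a group came from a separate mouse, so p-values measure the spread between mice.

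IL-1 alpha and IL-1 beta, the products of Il1a and Il1b, are inflammatory cytokines that act on the same receptor, and Il1rn encodes the antagonist that occupies this receptor without activating it. IL-1 beta and IL-18 are made as inactive precursors, which caspase-1 cuts once a sensor such as NLRP3 has joined with the adaptor ASC (the product of Pycard) in the complex called the inflammasome. AMs live in the air spaces and keep the lung quiet toward inhaled material, and IL-1 family cytokines are among the first signals that lung macrophages release after injury. The level of an mRNA gives neither the cut nor the secreted protein.

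Levels are given as FPKM (fragments divided by the length of the transcript and by the mapped fragments of the library), which can be set side by side between genes because they are per length, and differences as log2(FPKM + 1) changes with the standard error (SE) of a limma fit. A gene was called where its adjusted p (limma, Benjamini-Hochberg over the 10686 genes tested) was below 0.05. All 10 genes passed the filter for testing (FPKM of 1 or more in 3 or more samples). An estimated 11100000 to 13900000 reads lay behind a sample, and the lowest estimates for these genes in any sample were 46 reads for Il18bp and 99 for Il1r2, against at least 195 for each of the other genes. Marker genes were set beside the sorted identities. The summed FPKM of 9 AM markers ran from 28400 to 33900 in the Ctrl-AM samples, from 24800 to 41200 in the Tumor-AM samples and from 280 to 595 in the TAM samples, where all 9 were lower than in Tumor-AM. Chil3 made up most of the sums in the AM samples. Its means were 25740 FPKM in the Ctrl-AM samples, 26230 in the Tumor-AM samples and 236 in the TAM samples. The 4 TAM markers used by the study were Ccr2, Cx3cr1, Tgfb3 and Ly6c2. They summed to between 6.58 and 8.35, between 11.7 and 14.3 and between 149 and 193 in the same order, so the labels and markers went together. This is no independent check of identity. Siglecf, among the 9 AM markers, encodes the protein used for the sort. The study had shown the 4 TAM markers and several of the AM markers in these same samples. In bulk samples such as these, fewer cells of a type and less RNA per cell cannot be told apart.

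In AMs of tumor-bearing lungs, 2 of the 10 genes were higher than in control AMs (Il1b and Il18bp), 1 was lower (Il18), and 7 were not called. Over all genes tested, 10.3% were called in this comparison, 7.11% higher and 3.18% lower. TAMs differed from Tumor-AM in 6 of the 10 genes, with Il18bp, Il1r2, Pycard and Il1rn higher and Il18 and Il1a lower, against 48.6% of all genes called (24.2% higher and 24.4% lower). TAMs differed from Ctrl-AM in 8 of the 10, with 6 higher and 2 lower, against 54.8% of all genes (27.7% higher and 27.1% lower). The median log2 change of the 10 genes was 0.31 in the first comparison, 0.37 in the second and 0.77 in the third, and the medians over all genes were 0.0142, 0.00117 and -0.00824. The values of the paired groups did not overlap for 6 of the 10 genes between Tumor-AM and Ctrl-AM, for 7 between Tumor-macrophage and Tumor-AM, and for 8 between Tumor-macrophage and Ctrl-AM. Over all genes these shares were 32.3%, 55.3% and 62.3%. Each group enters 2 of the 3 comparisons, so the comparisons are not independent of each other.

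Between Tumor-AM and Ctrl-AM, 760 genes were higher and 340 lower in all, and this split moved with the scaling, to 475 and 824 after rescaling to TPM (an equal sum for each sample, which shifted the median gene by -0.109) and to 607 and 446 after quantile normalization. For Tumor-macrophage against Ctrl-AM, the 2960 higher and 2900 lower genes became 2130 and 4409 after rescaling to TPM, with a median shift of -0.222. None of the calls on the 10 genes changed direction or was lost under these scalings. The count of 1100 genes called between Tumor-AM and Ctrl-AM dropped to 538 without Ctrl-AM 1, to 690 without Ctrl-AM 2, to 549 without Ctrl-AM 3, to 733 without Tumor-AM 1 and to 674 without Tumor-AM 3. Of the 10 genes, 5 instead of 3 were called without Tumor-AM 1, the added genes being Casp4 and Pycard.

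**Figure D1:**
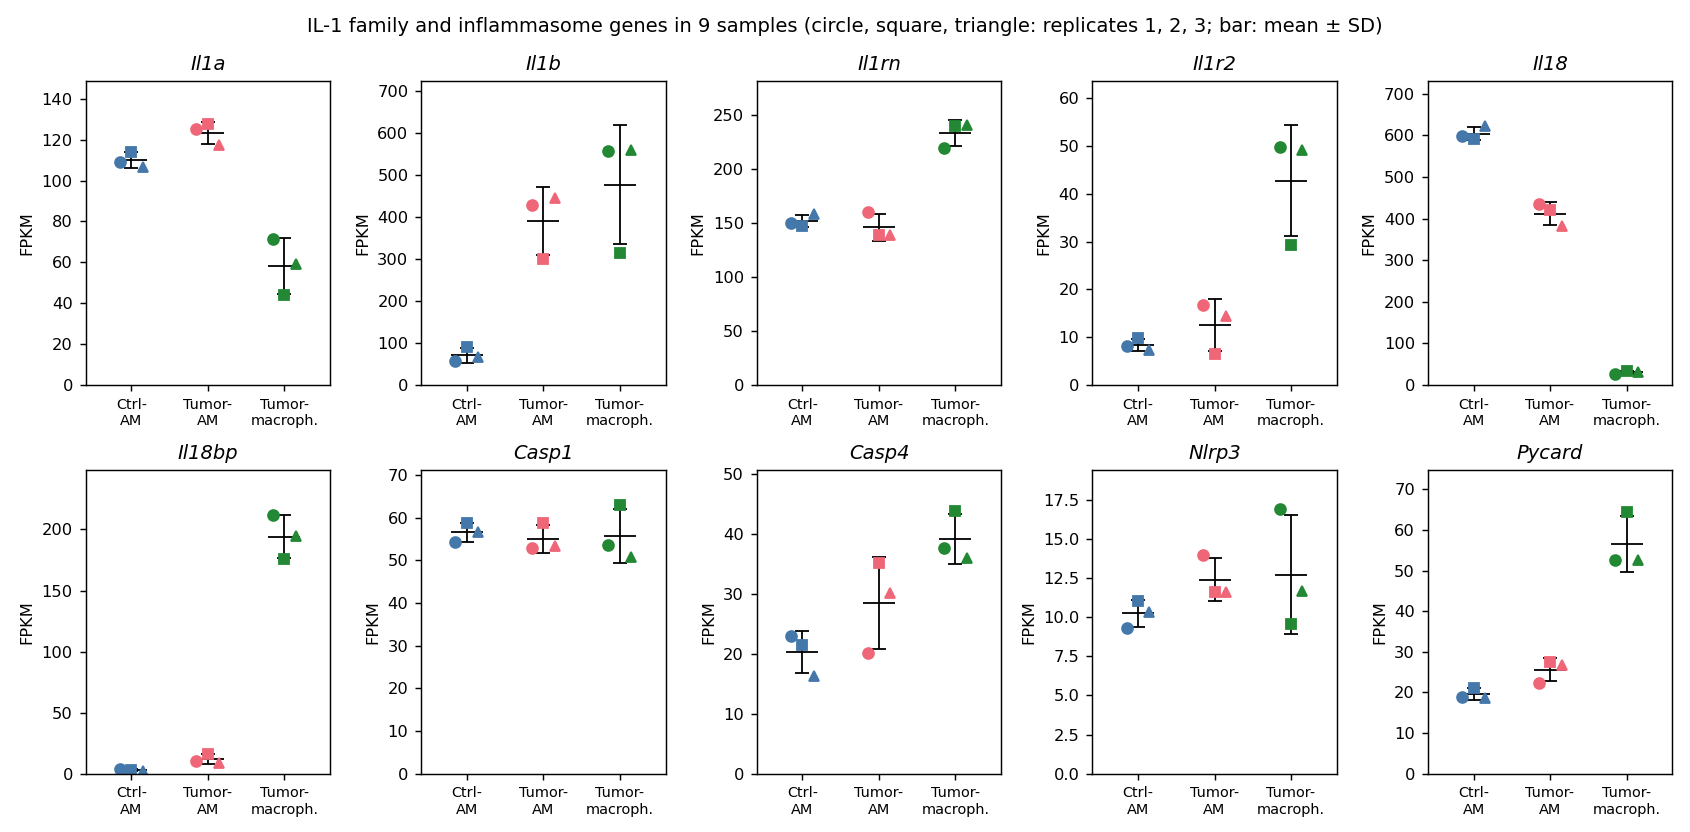
FPKM (linear vertical axes starting at 0, a separate scale for each gene) of the 10 genes in the 3 Ctrl-AM, 3 Tumor-AM and 3 Tumor-macrophage samples, with circles, squares and triangles for replicates 1, 2 and 3 and bars for mean ± SD. Il1b stands at 56.1 to 90.5 in Ctrl-AM and at or above 299 in every sample of both tumor groups, Il18 falls to between 26.6 and 32.6 in Tumor-macrophage, Il18bp is highest there, and Casp1 overlaps in all 3 groups.

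The 2 IL-1 agonist genes lie next to each other on mouse chromosome 2 (GRCm38), Il1a at chr2:129299610-129309972 and Il1b at chr2:129364570-129371139, both on the minus strand and 54.6 kb apart. The 250 bases before their RefSeq start sites (GRCm38.p6, minus strand, printed 5′ to 3′) are shown because these neighbours moved differently in the data. Capitals mark matches to 6 short motifs searched on both strands: the TATA box (TATAAA), AP-1 (TGANTCA), C/EBP (TTNNGNAA), PU.1 (GAGGAAG), NF-kappaB (GGANTTTCC) and the interferon response element ISRE (GAAANNGAA).
Il1a, chr2:129309973-129310222: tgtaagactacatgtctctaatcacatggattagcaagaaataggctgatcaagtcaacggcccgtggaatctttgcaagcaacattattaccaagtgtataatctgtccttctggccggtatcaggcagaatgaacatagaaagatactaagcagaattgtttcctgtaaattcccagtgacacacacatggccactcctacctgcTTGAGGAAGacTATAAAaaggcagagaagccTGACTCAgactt
Il1b, chr2:129371140-129371389: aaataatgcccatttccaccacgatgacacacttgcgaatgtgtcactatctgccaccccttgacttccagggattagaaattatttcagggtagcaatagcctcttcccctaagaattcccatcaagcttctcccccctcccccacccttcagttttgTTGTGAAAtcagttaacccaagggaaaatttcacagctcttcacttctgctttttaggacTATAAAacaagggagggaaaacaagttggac
Both windows hold TATAAA just before the start site, from position -32 to -27 in Il1a and from -31 to -26 in Il1b, a match that 12.4% of 32851 mouse promoter windows of the same length hold on either strand. Both also hold a C/EBP match, as did 36.8% of all windows, and Il1a alone of the pair holds an AP-1 match (TGACTCA, from -12 to -6), found in 6.75% of all windows. Its PU.1 match (10.6% of windows) overlaps its C/EBP match. Such matches are letters in a window and not binding sites.

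Il1b had the largest rise of the 10 genes in Tumor-AM. Its levels were 56.1, 90.5 and 65.6 FPKM in the Ctrl-AM samples, 427, 299 and 446 in the Tumor-AM samples and 556, 315 and 559.9 in the TAM samples. Every sample of the tumor groups was above every control sample, whereas Tumor-AM and Tumor-macrophage overlapped. The mean was 70.7 ± 17.8 FPKM (SD, n = 3) in the controls and 390.4 ± 80.1 in the Tumor-AM samples. The difference was 5.52-fold (log2 change 2.45 ± 0.247, SE, limma adjusted p = 0.000383). By the size of its log2 change, Il1b was 39th of the 10686 genes in that comparison. In Tumor-macrophage the mean was 477 ± 140.4 FPKM, and the log2 change from Tumor-AM was 0.26 ± 0.247 with a 95% confidence interval from -0.29 to 0.81 (limma adjusted p = 0.413). Without 1 sample this change lay between 0.0795 (without Tumor-AM 2) and 0.54 (without Tumor-macrophage 2), not called in either case. Against Ctrl-AM, the TAMs were 6.74-fold higher (log2 change 2.72 ± 0.247, limma adjusted p = 4.84e-06). Ranked by mean FPKM among the genes tested, Il1b was the 1302nd among the controls, the 244th in Tumor-AM and the 203rd in TAMs.

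Il1a, in contrast, was not called between the AM groups and was lower in TAMs. Its levels were 109, 114 and 107 FPKM in the Ctrl-AM samples, 125, 127.5 and 117 in the Tumor-AM samples and 71.5, 44.2 and 59.3 in the TAM samples. The Tumor-AM samples were all above the Ctrl-AM samples, but the log2 change of 0.16 (95% confidence interval from -0.15 to 0.47) was not called (limma adjusted p = 0.529). In TAMs the level fell by 1.09 ± 0.139 on the log2 scale from Tumor-AM (2.11-fold lower, limma adjusted p = 7.62e-05) and fell by 0.93 ± 0.139 from Ctrl-AM (limma adjusted p = 0.00021). Within each sample, the ratio of Il1b to Il1a was 0.515, 0.793 and 0.614 in the Ctrl-AM samples, 3.42, 2.34 and 3.80 in the Tumor-AM samples and 7.78, 7.12 and 9.44 in the TAM samples. Thus Il1a mRNA was above Il1b mRNA in every control sample and below it in every sample of the tumor groups. This ratio was chosen after its values were seen and was not tested. Il1a shares exonic bases with the antisense gene Gm14023 (0.5 to 3.19 FPKM) in 7.95% of its 75-base windows. Il1b overlaps the antisense gene Il1bos (0 to 0.405 FPKM) but shares no whole 75-base window with it. The library kit does not mark strand, so reads from shared windows cannot be told apart.

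Neutrophils and monocytes are other strong sources of Il1b, and immediate-early genes rise when tissue is digested, so both were measured beside it. The 9 neutrophil markers in the files (of 10 listed) summed to between 113 and 134 FPKM in Ctrl-AM samples, between 111 and 165 in Tumor-AM samples and between 97.6 and 152 in TAM samples. S100a8 made up most of these sums in the AM samples, at 71.7 to 81.4 FPKM in the controls and 86 to 144 in Tumor-AM samples, a log2 change of 0.60 that was not called (limma adjusted p = 0.0708). Of the 6 markers that were tested, none was called higher and 2 were lower in Tumor-AM (S100a9, -1.81, and Retnlg, -1.09), 33.3% beside 3.18% of all genes lower. Cxcr2 was 0.22 higher without overlap (limma adjusted p = 0.339). In TAMs against Tumor-AM, Mmp9 (2.90) and Csf3r (1.75) were higher and S100a8 (-0.89) and Cxcr2 (-0.83) lower, with the granule genes Camp and Ngp at 0 in every TAM sample. The 6 monocyte markers summed to between 19.6 and 21.8, between 26.6 and 34.4 and between 140 and 148 FPKM. In Tumor-AM 3 of 5 tested were higher (Hp, 1.23, Ccr2, 0.97, and Ly6c2, 0.50), 60% beside 7.11% of all genes. Of 16 immediate-early genes, 5 were higher in Tumor-AM and none lower (31.2%, beside 7.11% of all genes higher), led by Ier3 (2.02), Junb (1.11) and Nr4a1 (0.92). The part of neutrophils, of monocytes and of the response to digestion in the Il1b result was not tested.

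Among the 10, 3 genes encode natural brakes on these cytokines: Il1rn (the receptor antagonist), Il1r2 (a decoy receptor that binds IL-1 without signalling) and Il18bp (a secreted protein that binds IL-18). Il1rn was not called in Tumor-AM, and TAMs carried more of it. The levels of Il1rn (chr2:24336853-24351494, plus strand) were 150.4, 147 and 158 FPKM in the Ctrl-AM samples, 160.5, 139 and 139 in the Tumor-AM samples and 219.6, 239.9 and 241 in the TAM samples. The AM groups overlapped, and the TAM samples were above all others. The log2 change from Ctrl-AM to Tumor-AM was -0.0567 (95% confidence interval from -0.23 to 0.11, limma adjusted p = 0.708), and TAMs were 1.60-fold higher than Tumor-AM (log2 change 0.67 ± 0.0765, limma adjusted p = 3.3e-05) and 1.54-fold higher than Ctrl-AM (0.62 ± 0.0765, limma adjusted p = 5.29e-05). After rescaling to TPM the last value was 0.38, still called.

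The ratio of Il1rn to Il1b within a sample was 2.68, 1.62 and 2.41 in the Ctrl-AM samples, 0.376, 0.466 and 0.312 in the Tumor-AM samples and 0.395, 0.762 and 0.431 in the TAM samples. Il1rn mRNA was above Il1b mRNA in the 3 control samples and below it in the 6 samples of the tumor groups. Il1a, the other agonist gene, is not in this ratio. In the Ctrl-AM samples it was at 107 to 114 FPKM, above Il1b, so the ratio is not the balance of antagonist and all agonist mRNA. The log2 ratio fell by 2.53 from Ctrl-AM to Tumor-AM and by 2.11 from Ctrl-AM to Tumor-macrophage, each with an exact permutation p of 0.1 (two-sided), the smallest that 3 samples against 3 allow, and 0.15 after adjustment over the 3 comparisons. Between Tumor-macrophage and Tumor-AM the difference was 0.42 (exact permutation p = 0.4, adjusted p = 0.4).

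**Figure D2:**
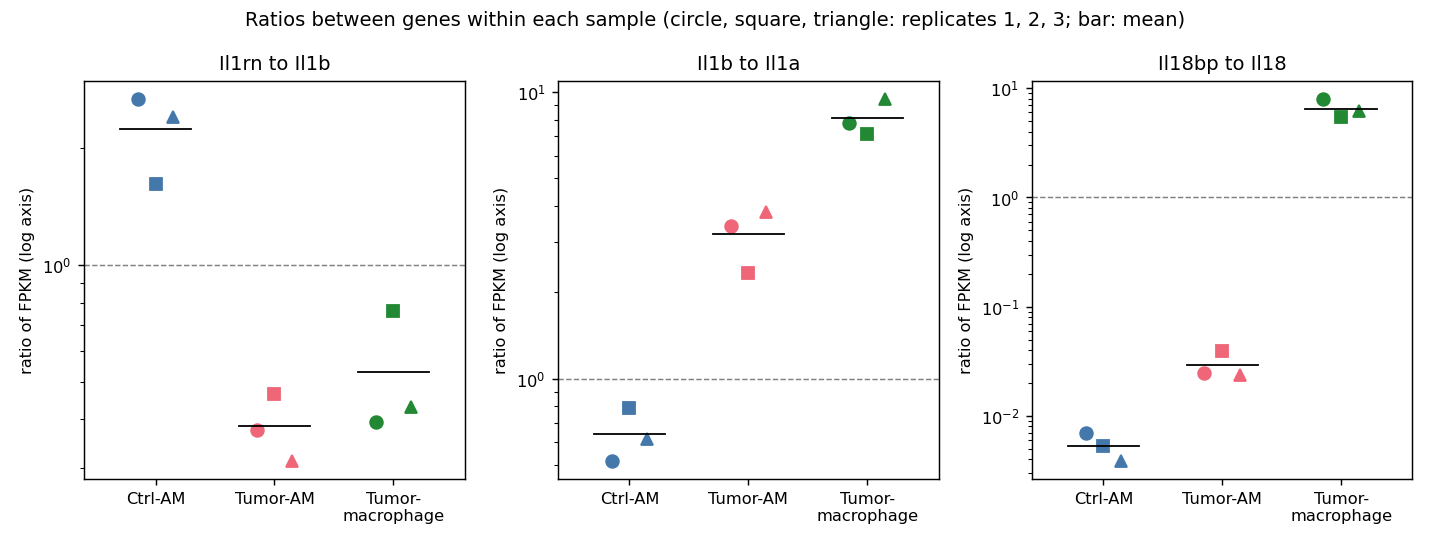
Ratios of FPKM between 2 genes within each sample (log vertical axes, a separate range for each panel, dashed line at a ratio of 1), with circles, squares and triangles for replicates 1, 2 and 3 and a bar for the mean of 3 samples. The Il1rn to Il1b ratio lies above 1 in the Ctrl-AM samples and below 1 in the other 6, the Il1b to Il1a ratio lies on the opposite sides, and the Il18bp to Il18 ratio is above 1 in the 3 Tumor-macrophage samples only.

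Il1r2 (chr1:40074079-40125231, plus strand) was near the middle of the genes tested in AMs and higher in TAMs. Its levels were 8.10, 9.80 and 7.35 FPKM in the Ctrl-AM samples, 16.8, 6.53 and 14.4 in the Tumor-AM samples and 49.7, 29.3 and 49.2 in the TAM samples. The AM groups overlapped because Tumor-AM 2 was below all controls, and every TAM sample was above every AM sample. TAMs were 3.40-fold higher than Tumor-AM (log2 change 1.74 ± 0.302, limma adjusted p = 0.000705) and 5.08-fold higher than Ctrl-AM (2.18 ± 0.302, limma adjusted p = 0.000119). Between the AM groups the change was 0.44 (95% confidence interval from -0.23 to 1.11, limma adjusted p = 0.414), and without Tumor-AM 2 it was 0.82, also not called. Il1r2 is a known neutrophil gene as well, and of the neutrophil markers Csf3r (3.44-fold, limma adjusted p = 0.000128) and Mmp9 (21.5-fold, limma adjusted p = 1.54e-06) were also higher in TAMs than in Tumor-AM, while S100a8 and Cxcr2 were lower. The part of neutrophils in the Il1r2 result was not tested.

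Il18 and Il18bp showed the widest contrasts. Il18 (chr9:50554827-50581840, plus strand) was the most abundant of the 10 mRNAs in control AMs, and Il18bp (chr7:102014885-102018690, minus strand) the least abundant there. The windows before their RefSeq starts (250 bases, GRCm38.p6, 5′ to 3′, plus strand for Il18 and minus strand for Il18bp) are shown for this opposed pair, with motif matches in capitals.
Il18, chr9:50554450-50554699: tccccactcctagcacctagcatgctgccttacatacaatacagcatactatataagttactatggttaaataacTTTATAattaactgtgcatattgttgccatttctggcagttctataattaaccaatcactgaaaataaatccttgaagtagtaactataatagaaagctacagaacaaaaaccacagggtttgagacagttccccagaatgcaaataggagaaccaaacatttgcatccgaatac
Il18bp, chr7:102018233-102018482: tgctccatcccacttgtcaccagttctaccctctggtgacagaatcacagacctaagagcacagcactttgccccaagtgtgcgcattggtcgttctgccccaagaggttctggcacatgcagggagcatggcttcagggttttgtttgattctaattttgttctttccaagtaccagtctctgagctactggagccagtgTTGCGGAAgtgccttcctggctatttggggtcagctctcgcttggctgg
The Il18 window held 1 match, the TATA box letters on the reverse strand at -175 to -170, and the Il18bp window 1 match, a C/EBP match at -49 to -42. The Il18bp window lies inside the gene as annotated by GENCODE, whose 5′ end is upstream of the RefSeq start used. The Il1r2 window and some windows of Il1rn and Nlrp3 likewise lie inside their genes. No window of the 10 genes held the ISRE letters (7.13% of all windows), and 1 gene, Nlrp3, had a window with the NF-kappaB letters searched (GGANTTTCC, 1.07% of all windows). Only this form of the NF-kappaB letters was searched. Near matches, such as GGGATTTCC in the Casp4 windows, were not counted.

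The Il18 levels were 598, 591.5 and 622.5 FPKM in the Ctrl-AM samples, 434, 421 and 381 in the Tumor-AM samples and 26.6, 32.6 and 31.4 in the TAM samples. No groups overlapped. The mean of 604 ± 16.3 FPKM (SD, n = 3) in Ctrl-AM stood at 412 ± 27.6 in Tumor-AM, where the level fell by 0.55 ± 0.0852 on the log2 scale (1.47-fold lower, limma adjusted p = 0.00321). In TAMs it was 30.2 ± 3.16 FPKM, 13.6-fold below Tumor-AM (log2 change -3.73 ± 0.0852, limma adjusted p = 2.21e-10) and 20-fold below Ctrl-AM (-4.28 ± 0.0852, limma adjusted p = 8.48e-11). Its rank by mean FPKM went from the 137th gene in Ctrl-AM to the 229th in Tumor-AM and the 2609th in Tumor-macrophage. The AM markers moved with it in TAMs (Ear2, -7.16, Chil3, -6.96, and Car4, -6.96, on the log2 scale from Tumor-AM), and 1 of 9, Pparg, was lower in Tumor-AM (-0.53). Lung epithelium, another source of Il18, had marker sums of 123 to 261, 59.5 to 109 and 19.7 to 71.6 FPKM in Ctrl-AM, Tumor-AM and Tumor-macrophage. Of 5 tested, 1 was lower in Tumor-AM (Epcam, -2.46, 20% beside 3.18% of all genes lower). The other 4 were not called, among them Krt8, higher by 1.01 (limma adjusted p = 0.189). Scgb1a1 was at 168.5 FPKM in Ctrl-AM 1, against 5.2 and 2.2 in Ctrl-AM 2 and 3. In Ctrl-AM the means were 55.2 FPKM for Epcam, 21.4 for Cdh1, 46.4 for Sftpc, 58.6 for Scgb1a1, 0.696 for Sftpb and 0.209 for Krt8. RNA of these genes from epithelial cells and from the AMs themselves cannot be told apart here, so a lower Epcam level need not mean less epithelial RNA. The genes of this list other than Epcam were named after their values were seen. The part of epithelial RNA in the Il18 result was not tested.

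Il18bp went the other way. Its levels were 4.16, 3.11 and 2.39 FPKM in the Ctrl-AM samples, 10.8, 16.5 and 9.05 in the Tumor-AM samples and 211.5, 176 and 194 in the TAM samples. Again no groups overlapped. Tumor-AM were 3.76-fold above Ctrl-AM (log2 change 1.62 ± 0.203, limma adjusted p = 0.00118), and TAMs were 16-fold above Tumor-AM (3.93 ± 0.203, limma adjusted p = 8.01e-08) and 60.3-fold above Ctrl-AM (5.55 ± 0.203, limma adjusted p = 4.57e-09). The folds are ratios of mean FPKM, and the log2 changes, with 1 added to each value, are smaller for a gene this low in AMs. Within a sample the ratio of Il18bp to Il18 was 0.00535 ± 0.00156 (SD, n = 3) in the Ctrl-AM samples, 0.0293 ± 0.00863 in the Tumor-AM samples and 6.51 ± 1.30 in the TAM samples, a ratio chosen after its values were seen and not tested. IL-18 mRNA thus exceeded binding protein mRNA in all 6 AM samples, and the order was opposite in all 3 TAM samples. Il18bp overlaps Numa1 on the other strand (5.94 to 8.55 FPKM), with which 0.39% of its 75-base windows share bases.

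Since TAMs carry much Il18bp, TAM markers in the AM sort were measured beside its rise. Of the distance from the Ctrl-AM mean to the Tumor-macrophage mean, the Tumor-AM mean of Il18bp had covered 4.66%. The same share was 7.07% for Ccr2, 5.05% for Ly6c2, 2.31% for Tgfb3 and 0.234% for Cx3cr1. Of these 4 markers, Ccr2 (log2 change 0.97, limma adjusted p = 0.00965) and Ly6c2 (0.50, limma adjusted p = 0.00867) exceeded their control level in Tumor-AM, and Cx3cr1 was between 0.27 and 0.741 FPKM in Tumor-AM against 46.8 to 86 in Tumor-macrophage. For Il1b the share was 78.7%. The part of TAM RNA in the Il18bp and Il1b results was not tested. Markers of other cells were also measured in the TAM sort. Dendritic cell markers (6 genes) summed to between 15.2 and 17.9 FPKM in control AMs, between 7.48 and 14.6 in Tumor-AM and between 25 and 56.4 in TAMs, with 3 of 5 tested above their Tumor-AM level. T, B and NK cell markers (6 genes) summed to between 13.6 and 18.1, between 6.59 and 20.4 and between 30.3 and 55.9 FPKM, with 4 of 5 tested higher in that comparison. Of the immediate-early genes, 8 of 16 were higher and 3 lower there (50% and 18.8%). Of the tested dendritic cell markers 60% were higher, and of the T, B and NK cell markers 80%. Over all genes, 24.2% were higher and 24.4% lower in that comparison. The part of these cells and of digestion in the TAM values was not tested.

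Of the 4 inflammasome genes, Casp1 and Nlrp3 were called in none of the 3 comparisons, Casp4 in 1 and Pycard in 2. Casp1 (chr9:5298517-5307265, plus strand), which encodes the caspase that cuts both precursors, was at 54.4, 58.7 and 56.6 FPKM in the Ctrl-AM samples, 52.9, 58.8 and 53.5 in the Tumor-AM samples and 53.5, 62.9 and 50.8 in the TAM samples. All 3 groups overlapped. The log2 change was -0.0394 between the AM groups (95% confidence interval from -0.24 to 0.16), 0.0134 from Tumor-AM to TAMs (from -0.19 to 0.21, and -0.0828 after rescaling to TPM) and -0.026 from Ctrl-AM to TAMs (from -0.22 to 0.17), so a change beyond 0.24 in either direction lay outside each of these intervals. After rescaling to TPM, which shifts the median gene by -0.222 in the last comparison, the last value was -0.26 and was called (limma adjusted p = 0.0433).

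Casp4 (chr9:5308828-5336783, plus strand) lies 1.56 kb from Casp1 and encodes caspase-11, which senses bacterial lipopolysaccharide inside the cell and cuts gasdermin D. It was at 23, 21.6 and 16.4 FPKM in the Ctrl-AM samples, 20.2, 35.2 and 30.2 in the Tumor-AM samples and 37.7, 43.9 and 36.1 in the TAM samples. Tumor-AM overlapped the controls through Tumor-AM 1, and the TAM samples were above all AM samples. TAMs were 1.93-fold above Ctrl-AM (log2 change 0.93 ± 0.189, limma adjusted p = 0.00182). The step from Ctrl-AM to Tumor-AM (0.45, limma adjusted p = 0.175) was called, among the alternatives, only without Tumor-AM 1 (0.67, limma adjusted p = 0.0288). The step from Tumor-AM to TAMs (0.48, limma adjusted p = 0.0599) was called without Tumor-AM 2 (0.64, limma adjusted p = 0.0188) and after quantile normalization (0.51, limma adjusted p = 0.0463).

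Nlrp3 (chr11:59541568-59566956, plus strand), the sensor, was low in all groups. Its levels were 9.33, 11.1 and 10.3 FPKM in the Ctrl-AM samples, 14, 11.6 and 11.6 in the Tumor-AM samples and 16.9, 9.54 and 11.6 in the TAM samples. The AM groups did not overlap, yet the change of 0.25 (95% confidence interval from -0.13 to 0.64) was not called (limma adjusted p = 0.421). The change from Ctrl-AM to TAMs was also 0.25 (limma adjusted p = 0.242), and without Tumor-macrophage 2 it was 0.42 and called (limma adjusted p = 0.0468). Between TAMs and Tumor-AM the estimate was 0.00186, with an interval from -0.38 to 0.39, and its sign turned with the scaling (-0.0911 after rescaling to TPM).

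Pycard (chr7:127989708-127993867, minus strand), the adaptor, was the inflammasome gene with the largest change. It was at 19, 21.2 and 18.6 FPKM in the Ctrl-AM samples, 22.4, 27.6 and 26.9 in the Tumor-AM samples and 52.6, 64.5 and 52.7 in the TAM samples. The groups stood in this order without overlap. TAMs were 2.21-fold above Tumor-AM (log2 change 1.11 ± 0.110, limma adjusted p = 1.11e-05) and 2.89-fold above Ctrl-AM (1.48 ± 0.110, limma adjusted p = 9.48e-07). The step of 0.37 from Ctrl-AM to Tumor-AM was not called (limma adjusted p = 0.0616), and it was called without Tumor-AM 1 (0.46, limma adjusted p = 0.0401) and without Tumor-macrophage 2 (0.37, limma adjusted p = 0.0369), a sample that enters this step only through the shared estimate of the spread. Of the 75-base windows of Pycard, 11.03% share bases with the antisense gene Gm45205, which was not among the symbols.

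**Figure D3:**
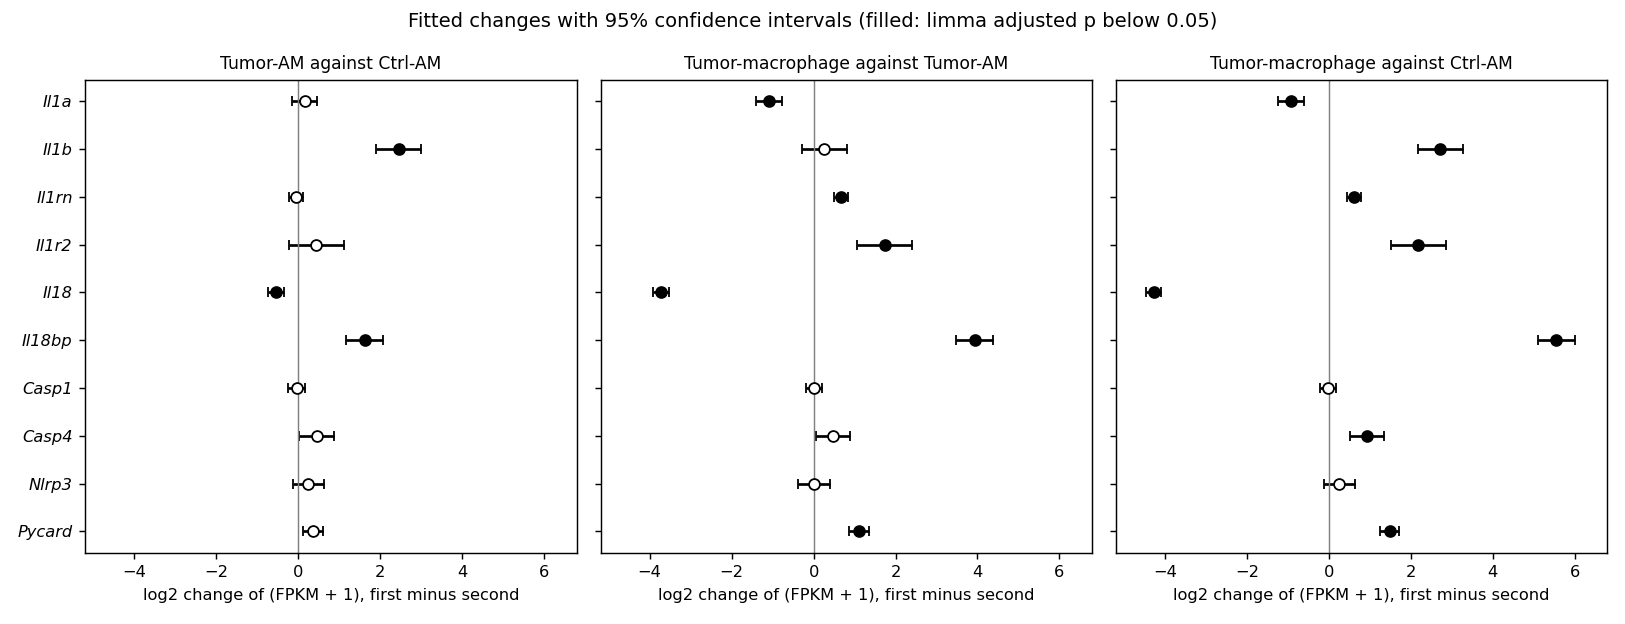
Log2 change of (FPKM + 1) for the 10 genes (horizontal axis, first named group minus the second) in the 3 comparisons, with 95% confidence intervals of the limma fit on 3 samples a group and filled points where the adjusted p was below 0.05. In the left panel Il1b (2.45) and Il18bp (1.62) lie to the right of 0 and Il18 (-0.55) to the left, and in the other panels Il18 and Il18bp lie farthest from 0 on opposite sides.

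Other genes of the pathway were counted from lists. Of 6 further IL-1 family ligand genes, 1 passed the filter: Il36g (listed as Il1f9), at a mean of 7.31 FPKM in the Ctrl-AM samples, 9.64 in the Tumor-AM samples and 5.90 in the TAM samples, and lower in TAMs than in Tumor-AM (-0.62, limma adjusted p = 0.000917). Il36a, Il36b and Il1f10 were at 0 in all 9 samples. The macrophages carried mRNA of Il1a, Il1b, Il18 and some Il36g, and the other ligand genes were below the filter.

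Of 8 receptor genes, 3 passed the filter and none was called in Tumor-AM. In TAMs, 2 were lower than in Tumor-AM (66.7% of those tested, beside 24.4% of all genes lower). They were Il1rl2, the IL-36 receptor (-1.62, limma adjusted p = 3.47e-05), and Il1rap, the accessory chain that the IL-1, IL-33 and IL-36 receptors share (-1.28, limma adjusted p = 3.78e-05). The mean of Il1rap was 9.28 FPKM in the Ctrl-AM samples, 11.7 in the Tumor-AM samples and 4.2 in the TAM samples. Il1r1, the signalling receptor for IL-1 and named here after its values were seen, stayed below the filter at means of 0.677, 0.843 and 0.315 FPKM. In every group its mean was below that of the decoy receptor gene Il1r2. The receptor genes were few and low, and Il1rapl1 was at 0 in all 9 samples.

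Downstream of the receptor, all 11 genes of the MyD88 branch passed the filter. Irak3, a brake on this branch, was the 1 gene higher in Tumor-AM (0.66, limma adjusted p = 0.0291), and none was lower (9.09% higher, beside 7.11% of all genes). In TAMs against Tumor-AM, Tab2 (0.60), Traf6 (0.32) and Tollip (0.25) were higher and Myd88, the adaptor itself, was lower (-0.70, limma adjusted p = 0.00016). These were 27.3% and 9.09% of the branch, beside 24.2% and 24.4% of all genes. Against Ctrl-AM, 6 of the 11 were higher and 1 lower in TAMs (54.5% and 9.09%, beside 27.7% and 27.1% of all genes). The median log2 change of the branch was 0.11, 0.18 and 0.34 in the 3 comparisons, beside 0.0142, 0.00117 and -0.00824 over all genes.

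Of 22 other inflammasome and pyroptosis genes, 17 were tested. In Tumor-AM 1 was higher, Ninj1, which encodes a protein of plasma membrane rupture (1.23, limma adjusted p = 0.000284), and none was lower (5.88% higher, beside 7.11% of all genes). In TAMs against Tumor-AM, 9 were higher and 6 lower, which left 2 without a call (52.9% and 35.3% of those tested, beside 24.2% and 24.4% of all genes). The higher ones were led by Ninj1 (3.63), Mefv (3.32), the gene of the sensor pyrin, and P2rx7 (1.41), the gene of an ATP-gated channel. The lower ones were led by Txnip (-0.93) and the genes of the bacterial flagellin and secretion system sensors Nlrc4 (-0.82) and Naip2 (-0.79). Ninj1 was at 20, 19.8 and 18.8 FPKM in the Ctrl-AM samples, 48.4, 38.1 and 56.5 in the Tumor-AM samples and 584, 584 and 616 in the TAM samples, without overlap. Naip2 has closely similar neighbours (Naip5 and Naip6), and how reads mapping to several genes were treated was not given in the sources used here, so the values of single Naip genes are uncertain. Nlrp6 was at 0 in all 9 samples. Against Ctrl-AM, 8 of the 17 were higher and 7 lower in TAMs (47.1% and 41.2%, beside 27.7% and 27.1% of all genes).

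Il1b is itself an NF-kappaB target, and 12 other NF-kappaB induced inflammatory genes were compared with it. In Tumor-AM 7 of the 12 were higher and none lower (58.3%, beside 7.11% of all genes higher), led by the neutrophil chemokine gene Cxcl1 (1.8), Il6 (1.72) and Tnfaip3 (1.19), a brake on NF-kappaB. The median of the list was 0.75. Tnf, named after its values were seen, was at a mean of 36.5 FPKM in control AMs and 28.1 in Tumor-AM (-0.40, limma adjusted p = 0.148). In TAMs against Tumor-AM, 8 were higher, led by Ccl4 (3.74), Ptgs2 (3.51) and Nfkbiz (1.83), and 1 was lower, Il6 (-2.04). These were 66.7% and 8.33% of the list, beside 24.2% and 24.4% of all genes. Il6 was at 4.26, 4.22 and 4.63 FPKM in the Ctrl-AM samples, 23, 13.4 and 14.9 in the Tumor-AM samples and 4.8, 1.49 and 4.47 in the TAM samples, and so, unlike Il1b, it was high in Tumor-AM samples and not in TAMs.

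**Figure D4:**
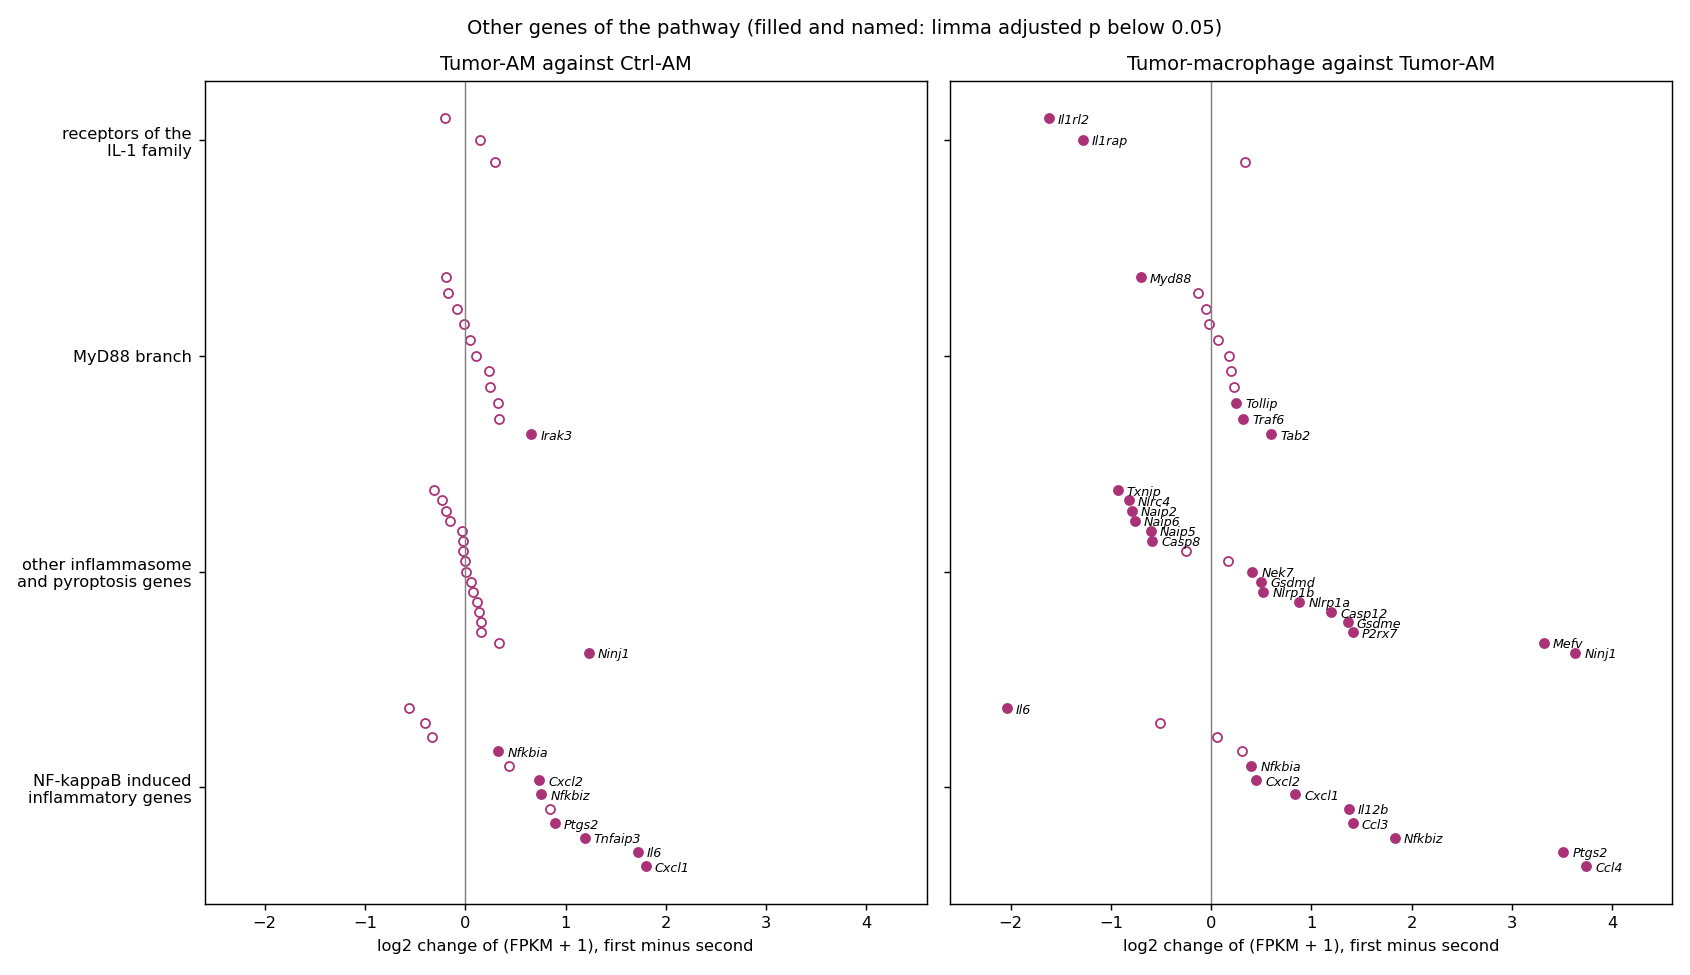
Log2 change of (FPKM + 1) (horizontal axis, first named group minus the second) for the tested genes of 4 lists, 1 point a gene, ordered by their change within a list, filled and named where the limma adjusted p was below 0.05. On the left, filled points are 7 NF-kappaB induced genes, Irak3 and Ninj1, all to the right of 0, and on the right the inflammasome and pyroptosis list splits into 9 higher and 6 lower genes.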

How the data were processed

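Female C57BL/6 mouse lung macrophages were sequenced as 3 Ctrl-AM, 3 Tumor-AM and 3 Tumor-macrophage samples. The authors amplified cDNA with the SMART-Seq HT kit, prepared Nextera libraries, sequenced 75-base single-end reads, mapped them to mm10 with TopHat2 2.1.1 and Bowtie2, and deposited FPKM per gene symbol. The submitters' processing notes name Cuffdiff 2.2.1, and the methods name Cufflinks of that version. The annotation was not given in the sources used here. FPKM divide by transcript length and library size, so reads taken up by a few abundant RNAs lower the values of the rest.

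From the deposited FPKM, log2(FPKM + 1) was fitted with limma 3.58.1 (R 4.3.3, intensity trend, all 9 samples, two-sided, Benjamini-Hochberg threshold 0.05) for 10686 genes with FPKM of at least 1 in at least 3 samples, and the fit was tested on simulated data. The Il1rn to Il1b ratio was compared by an exact permutation test. Reads were estimated from the spacing of low FPKM values, cover counting error only, and are not independent molecules. Loci came from GENCODE (GRCm38), where 95.7% of symbols matched, and promoters from RefSeq (GRCm38.p6), where all 10 genes matched, with Python 3.11.15, numpy 2.4.6, pandas 2.3.3, scipy 1.17.1 and matplotlib 3.10.9. The 10 genes, the lists and the tests were chosen with earlier results of these data known. All 10 genes are named in each comparison, and of each other list up to 3 called genes in each direction and those at 0 in all samples, with exceptions identified. Alternatives were another pseudocount (0.1), no filter or one of 5 FPKM, TPM, median-ratio and quantile scaling, a prior variance without trend, a fit on 2 groups, a replicate block and leaving out each sample.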

Additional observations from a re-analysis of the deposited data

How the results depend on the processing

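Calls of the 10 genes kept their direction and their side of the threshold under all 18 alternatives wherever they had been made. Uncalled changes of Casp4, Pycard, Casp1 and Nlrp3 passed the threshold under 1 to 3 alternatives each, given beside them except for those under the replicate block, which follow in the next paragraph. Leaving out 1 sample gave 538 to 1254 genes called between Tumor-AM and Ctrl-AM (1100 with all) and 3 to 5 of the 10 genes, 4701 to 5007 and 6 to 7 between Tumor-macrophage and Tumor-AM, and 5214 to 5863 and 8 to 9 between Tumor-macrophage and Ctrl-AM. Uncalled changes near 0 turned sign. For Nlrp3 in Tumor-macrophage against Tumor-AM the value was -0.000297 with a pseudocount of 0.1, -0.0911 after rescaling to TPM, -0.0179 after quantile normalization, and between -0.21 and 0.17 without 1 sample, below 0 without Tumor-AM 2 (-0.0396), Tumor-AM 3 (-0.04) or Tumor-macrophage 1 (-0.21). For Casp1 it was -0.0828 after rescaling to TPM and between -0.0756 and 0.0768 without 1 sample, below 0 without Tumor-AM 1 (-0.0146), Tumor-AM 3 (-0.00651) or Tumor-macrophage 2 (-0.0756). In Tumor-macrophage against Ctrl-AM, Casp1 lay between -0.12 and 0.0373 without 1 sample, above 0 without Ctrl-AM 2 (0.00065) or Tumor-macrophage 3 (0.0373). The cause was not tested. Leaving out 1 sample moved the log2 ratio of Il1rn to Il1b between -2.74 and -2.38, between 0.12 and 0.6 and between -2.41 and -1.93 in the 3 comparisons.

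Only Tumor-macrophage and Tumor-AM samples could share a mouse. Deviations of same-numbered samples of these 2 groups correlated weakly over genes (r from 0.026 to 0.109). All 6 of these samples correlated best with their own number, a hint from the data. In the comparisons with Ctrl-AM, r ran from -0.0615 to 0.159 (Tumor-AM) and from -0.00845 to 0.0487 (Tumor-macrophage). No label gives a pairing, so the main fit treated the samples as independent, which would not hold if mice were shared. With the replicate number as a block, 938, 5069 and 5772 genes were called in place of 1100, 5191 and 5860, with 872, 4937 and 5620 shared. Under the block 2 more changes passed the threshold, Pycard in Tumor-AM against Ctrl-AM (0.37, limma adjusted p = 0.0361) and Casp4 in Tumor-macrophage against Tumor-AM (0.48, limma adjusted p = 0.0499), and no other call on the 10 genes changed. Depth limits Il18bp and Il1r2 most, with 46 and 99 estimated reads in their lowest samples.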

Other observations

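Within both tumor groups, replicate 2 was the lowest of 3 for Il1b (299 FPKM in Tumor-AM, 315 in Tumor-macrophage) and for Il1r2 (6.53 and 29.3), and the highest for Casp1 (58.8 and 62.9), Casp4 (35.2 and 43.9) and Pycard (27.6 and 64.5). The labels do not say whether the samples numbered 2 share a mouse or a day, and the pattern was chosen after its values were seen and was not tested.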
